A study of Mus musculus with 4 samples.

Results

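Metallothioneins and zinc handling genes were followed in differentiating C2C12 cells treated with inhibitors of LSD1, a histone demethylase. The 10 genes are Mt1, Mt2, Mt3, Mtf1, Slc30a1, Slc30a4, Slc39a6, Slc39a7, Slc39a10 and Slc39a14. They were chosen by gene symbol, with every probe set that the array annotation gives to 1 of these symbols alone, which makes 10 of 18193 genes and 23 of 34945 probe sets. The probe set that stands for a gene was selected on the highest mean signal over the 4 arrays, so the brightness of these probe sets is a description. The gene group was also proposed with earlier results of these data known, among them higher Mt1 and Mt2 signals, so tests of its members describe these arrays and are not independent support.

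C2C12 is a mouse myoblast line that leaves the cell cycle and forms myotubes when serum is lowered. The groups were cells with tranylcypromine (TC, 1 array), cells with S2101 (1 array) and cells with vehicle (2 arrays), all grown with 10% fetal bovine serum, moved to 2% horse serum, with glucose at 25 mM throughout, and collected after 48 h. The labels give no dose, so TC and S2101 are set side by side without a claim that their doses match. Whether each array stands for its own culture is also not stated, and the p-values then reflect nothing but the scatter among these 4 arrays, which may be technical.

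The labelled cell type was checked against 13 myoblast and myotube markers, of which 12 were on the array with a single symbol and 11 were bright enough to test. Myog, a transcription factor of terminal muscle differentiation, had signals of 13386 with TC and 11963 with S2101, against 12999 and 12821 with vehicle. Of the 11, 1 marker, the cadherin gene Cdh15, passed the test, where 8.01% of all tested genes did. Its log2 difference was 0.31 ± 0.07 (adjusted p = 0.0171, limma). The summed signal of the 4 hepatocyte markers, genes of a tissue rich in metallothionein, was 106 with TC and 131 with S2101, against 55.9 and 109 with vehicle, and none of the 4 was bright enough to test. That of the myoblast and myotube markers was 123606 with TC and 114021 with S2101, against 116901 and 114987 with vehicle. Of 3 tested smooth muscle markers, Tagln (log2 difference -1.60) and Actg2 (-0.92) fell, where 3.74% of all tested genes did. Acta2 did not pass (-0.16; adjusted p = 0.152, limma). Myh11 and Cnn1 were too dim to test. Summed over the 5 smooth muscle markers, signal was 30538 with TC and 29410.1 with S2101, against 37337 and 35807 with vehicle. Most of it was Acta2, at 28644 with TC and 27329.5 with S2101, against 31972 and 30622 with vehicle. Of 4 tested neuron markers, Map2, which encodes a microtubule-associated protein, rose, with signals of 2837 with TC and 2709.6 with S2101, against 2084 and 2116 with vehicle (0.39 ± 0.08; adjusted p = 0.0105, limma). Nefl (-0.46), Tubb3 (-0.22) and Stmn2 (-0.19) did not pass, and the median of these 4 was -0.21. Over all tested genes 4.28% rose. The part of these marker changes in the values below was not tested. The marker calls were not rerun under the alternative settings described below. Summed signals of the other marker lists were 34 and 71.1, against 70.3 and 33.9, for adipocytes, 884 and 989, against 948 and 787, for osteoblasts or cartilage, 6482 and 5939.6, against 6171 and 6113, for neurons, and 449 and 600.4, against 520 and 581, for leukocytes (TC and S2101, against vehicle).

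Metallothioneins are small cysteine-rich proteins that bind zinc and copper in the cytosol and buffer them. Their genes are switched on by the metal-responsive transcription factor Mtf1, which senses free zinc and binds short metal response elements in promoters, and also by glucocorticoids and oxidative stress. Zinc transporters of the Slc30 family carry zinc out of the cytosol, and those of the Slc39 family carry it in. Zinc supply is needed by muscle cells for a large set of enzymes and transcription factors.

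The promoters of Mt1, Mt2 and Slc30a1 are shown because these genes are textbook targets of Mtf1, and because Mt1 and Mt2 are the members whose signals moved. Each runs from 250 bases before to 50 bases after the start listed in the RefSeq promoter table (GRCm38.p6, plus strand). Capitals mark matches to the metal response element core, searched as TGCACNC and TGCGCNC, and to the antioxidant response element core TGACNNNGC, each on both strands. The Mt1 window is chr8:94178839-94179138, the Mt2 window chr8:94172368-94172667 and the Slc30a1 window chr1:191906531-191906830.
Mt1: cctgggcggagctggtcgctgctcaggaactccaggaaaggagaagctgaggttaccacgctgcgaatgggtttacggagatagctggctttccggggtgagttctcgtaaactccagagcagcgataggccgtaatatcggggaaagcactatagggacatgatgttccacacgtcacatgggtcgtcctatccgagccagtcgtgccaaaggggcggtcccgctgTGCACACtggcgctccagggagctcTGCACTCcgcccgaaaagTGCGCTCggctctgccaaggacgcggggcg
Mt2: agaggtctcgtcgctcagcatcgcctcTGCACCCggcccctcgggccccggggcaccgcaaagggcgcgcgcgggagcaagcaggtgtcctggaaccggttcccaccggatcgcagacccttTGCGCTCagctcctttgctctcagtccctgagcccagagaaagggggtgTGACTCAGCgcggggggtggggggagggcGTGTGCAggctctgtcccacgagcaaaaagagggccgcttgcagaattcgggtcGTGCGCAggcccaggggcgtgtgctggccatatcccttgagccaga
Slc30a1: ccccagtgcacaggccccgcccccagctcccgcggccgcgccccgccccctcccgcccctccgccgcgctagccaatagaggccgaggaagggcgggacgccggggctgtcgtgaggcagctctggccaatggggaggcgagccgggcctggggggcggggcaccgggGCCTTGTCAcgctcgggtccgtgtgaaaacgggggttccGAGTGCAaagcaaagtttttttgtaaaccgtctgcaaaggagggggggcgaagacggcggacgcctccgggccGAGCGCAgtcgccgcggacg

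The metal response element core occurred 3 times in the Mt1 window, 4 times in the Mt2 window and 2 times in the Slc30a1 window, and no marked match overlaps another. In the Mt2 window the first letters of the matches lay 223, 128 and 50 bases before the start and at base 5 after it. In the Mt1 window 1 match lay 23 bases before the start and the others at bases 3 and 21 after it. The antioxidant core occurred 1 time for Mt2 and 1 time for Slc30a1 and was not found in the Mt1 window. Each window rests on the start listed for the gene, and letters outside it were not searched. A core not found in a window can therefore lie nearby. Among all 32851 promoter windows of the same length, 25.7% held at least 1 metal response core, 7.11% held at least 2, 0.517% held at least 4, and 12.4% held the antioxidant core. Of the other members with a promoter entry, Slc30a4 had 3 metal response cores, Mt3 had 1, and the windows of Mtf1, Slc39a7 and Slc39a10 had none of these letters. Entries matched 8 of the 10 members, and Slc39a6 and Slc39a14 are named without a window. A match describes letters in a window and says nothing of binding in these cells.

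The main comparison asked whether these genes differed between the inhibitor arrays (TC and S2101, n = 2) and the vehicle arrays (n = 2). Mt1 and Mt2 were higher with both compounds, by about 1.5 times in mean signal, while the sensor Mtf1, both exporters and all 4 importers did not pass the test. Of the 10 members, 9 were bright enough to test, 2 rose and 7 did not pass, against 4.28% of the 9097 tested genes that rose and 8.01% that changed in either direction (limma, adjusted p under 0.05 over all tested genes). No member fell, where 3.74% of tested genes did. At an unadjusted p under 0.05, 3 members were higher and 1 was lower, where 2029 of the 9097 tested genes had such a p in either direction. The members' median log2 difference was 0.12, against 0.01 over all tested genes. Values of this kind are differences of log2(signal + 50), a scale that understates the change of dim genes.

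Mt1, which encodes a metallothionein found in most tissues, had signals of 15123 with TC and 16328 with S2101, against 10294 and 9877 with vehicle. Both inhibitor arrays lay above both vehicle arrays, and the gap between the groups was many times the gap within the vehicle pair. The mean signal was 1.56 times that of vehicle, and the log2 difference was 0.64 ± 0.07 (SE; adjusted p = 0.000472, limma). Mt2, its close paralogue next to it on the chromosome, had signals of 10001 with TC and 11906 with S2101, against 6816 and 7782 with vehicle. The groups did not overlap here either, and the vehicle arrays lay 0.19 apart on the log2 scale, against 0.06 for Mt1. Mean Mt2 signal was 1.5 times that of vehicle, with a log2 difference of 0.58 ± 0.09 (adjusted p = 0.00433, limma). Ranked by increase among the 9097 genes, Mt1 stood at 111 and Mt2 at 157. When every gene was tested with no filter on dim ones, the Mt2 call ended (adjusted p = 0.068, limma; 0.000209 to 0.068 over 12 alternatives), with its difference still at 0.58.

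The Mt1 probe set carries the suffix _s_at, which marks probes that can match more than 1 transcript. The Mt1 and Mt2 messages are closely related, and whether each reached the probes of the other was not tested. A further Mt1 probe set was dim, with signals of 94.7 with TC and 40.7 with S2101, against 46.2 and 37.1 with vehicle, so S2101 lay between the vehicle arrays there and TC above them. In the fit over all 34945 probe sets its log2 difference was 0.32 ± 0.28 (adjusted p = 0.732, limma). In bulk RNA, a change in how many cells carry a message and a change in the amount per cell cannot be told apart.

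**Figure D1:**
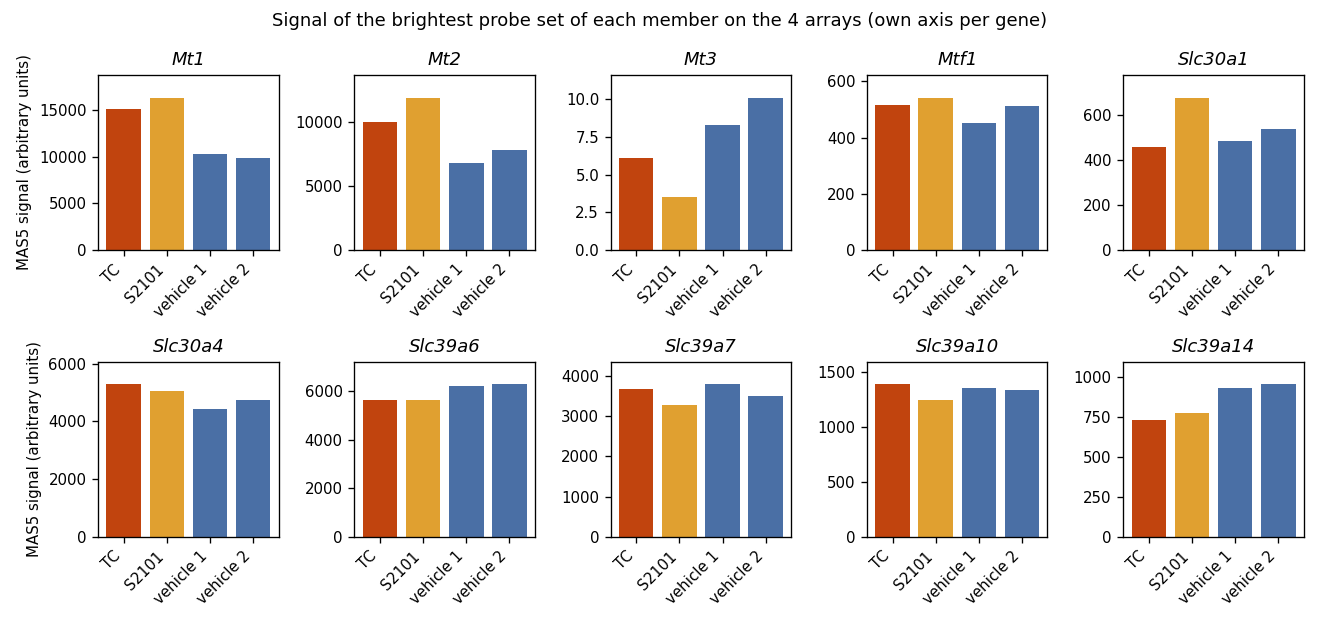
MAS5 signal (arbitrary units, linear axis from 0, own axis for each gene) of the brightest probe set of each of the 10 genes on the TC, S2101 and 2 vehicle arrays, 1 bar per array. Mt1 bars stand at 15123 and 16328 with the inhibitors and at 10294 and 9877 with vehicle, while the Slc39a10 bars all lie between 1249 and 1388.

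Mt3, the metallothionein known from brain, had signals of 6.08 with TC and 3.49 with S2101, against 8.29 and 10.1 with vehicle. All 4 values were far under the offset of 50 and it was not tested among the 9097 genes. In the fit over all probe sets its log2 difference was -0.11 ± 0.11 (adjusted p = 0.764, limma), and no fold is given at such signals. Mt4, the remaining mouse metallothionein, known from stratified epithelium, was equally dim at 4.55 with TC and 12.2 with S2101, against 28.8 and 16.5 with vehicle. The change was thus measured on Mt1 and Mt2, and the other metallothioneins were too dim to compare.

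Mtf1, the zinc sensor that drives metallothionein promoters, had signals of 516 with TC and 542 with S2101, against 453 and 512 with vehicle. Both inhibitor arrays lay above both vehicle arrays, but by less than the vehicle arrays lay apart. The log2 difference was 0.12 ± 0.12 (adjusted p = 0.596, limma). Its other probe sets did not move together. One had 412 with TC and 315 with S2101, against 262 and 225 with vehicle, a log2 difference of 0.49 ± 0.17 (adjusted p = 0.34 over all probe sets, limma). Another had 175 with TC and 171 with S2101, against 206 and 179.8 with vehicle, a log2 difference of -0.12 ± 0.17 (adjusted p = 0.857). The last of these sets has the suffix _a_at, for transcripts of 1 gene, and the remaining 2 Mtf1 probe sets had mean signals of 17.5 and 5.65, too dim to compare.

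Slc30a1, the exporter at the cell surface and itself a target of Mtf1, had signals of 459 with TC and 676 with S2101, against 483 and 539 with vehicle. TC lay under both vehicle arrays and S2101 above them, so the groups overlapped. The log2 difference over both compounds was 0.12 ± 0.16 (adjusted p = 0.725, limma). It was -0.14 for the TC array alone and 0.38 for the S2101 array alone. The dimmer Slc30a1 probe set read 148 with TC and 161 with S2101, against 114 and 130.3 with vehicle, with both inhibitor arrays above (0.25 ± 0.19; adjusted p = 0.696 over all probe sets). Slc30a4, which loads zinc into vesicles and supplies zinc to milk, had signals of 5282 with TC and 5042 with S2101, against 4426 and 4733 with vehicle. These groups did not overlap, the mean signal was 1.13 times that of vehicle, and the log2 difference of 0.17 ± 0.07 did not pass (adjusted p = 0.19; 95% interval 0.01 to 0.33, limma).

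Among the importers, Slc39a14, which carries zinc and also iron and manganese, had the largest difference. Signals were 727 with TC and 772 with S2101, against 931 and 951 with vehicle. Both inhibitor arrays lay under both vehicle arrays, the mean signal was 0.797 times that of vehicle, and the log2 difference was -0.31 ± 0.10 (adjusted p = 0.0793, limma), which did not pass. In none of the 12 alternatives did it pass (adjusted p from 0.0709 to 0.353 in the 11 that tested it). Of its 3 other probe sets, all with mean signals under 100, 2 had both inhibitor arrays under both vehicle arrays and 1 overlapped. Their log2 differences over all probe sets were -0.33 ± 0.23, -0.58 ± 0.27 and -0.05 ± 0.20.

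Slc39a6, an importer at the cell surface, had signals of 5652 with TC and 5637 with S2101, against 6217 and 6270.1 with vehicle. The compounds read nearly alike and lay under both vehicle arrays, yet the log2 difference of -0.14 ± 0.07 did not pass (adjusted p = 0.23, limma). Its next probe set overlapped, with 343 with TC and 373 with S2101, against 397 and 347 with vehicle. The remaining 2, dim, probe sets stood at -0.08 ± 0.22 and 0.14 ± 0.18. Slc39a7, which releases zinc from the endoplasmic reticulum, had signals of 3673 with TC and 3277 with S2101, against 3787 and 3501 with vehicle. Its only probe set carries the suffix _s_at, as that of Mt1 does, and whether it caught other transcripts was not tested. Slc39a10, another importer at the cell surface, had 1388 with TC and 1249 with S2101, against 1352 and 1339 with vehicle. For both genes the groups overlapped, with log2 differences of -0.07 ± 0.08 and -0.03 ± 0.09 (adjusted p = 0.688 and 0.889, limma). Their 95% intervals ran from -0.25 to 0.11 for Slc39a7 and from -0.23 to 0.17 for Slc39a10. A further Slc39a10 probe set had 321 with TC and 214 with S2101, against 291 and 233 with vehicle, and overlapped as well (0.01 ± 0.21).

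Counted over the 9 tested members, both inhibitor arrays lay above both vehicle arrays for 4 genes (Mt1, Mt2, Mtf1 and Slc30a4) and under them for 2 (Slc39a6 and Slc39a14), and 3 overlapped. Over all tested genes the inhibitor arrays lay above in 27.6% and below in 23.4%. Among genes that lay above, Mt1 and Mt2 stood apart from Mtf1 and Slc30a4 by the size of the difference.

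**Figure D2:**
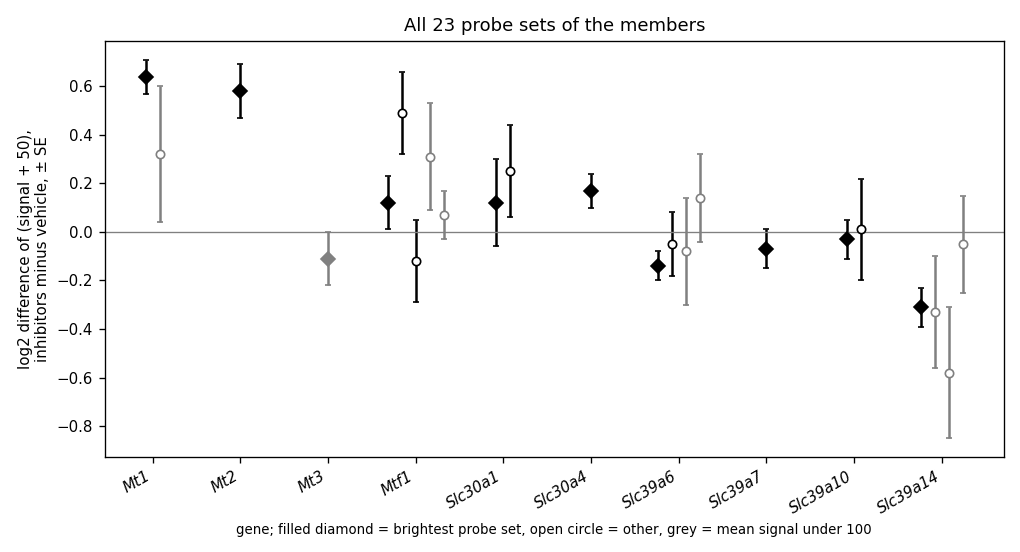
Log2 difference of (signal + 50), inhibitors minus vehicle, with SE bars from a limma fit over all 34945 probe sets, for the 23 probe sets of the 10 genes; filled diamonds are the brightest set of a gene, open circles the others, and grey marks mean signals under 100. Mt1 (0.64) and Mt2 (0.58) stand highest among the brightest sets, and the Mtf1 sets range on both sides of 0.

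The compounds were then set against vehicle one at a time. Here each compound has 1 array, whose spread is taken from the vehicle pair and from a prior over all tested genes. The prior weighs most, with 8.37 degrees of freedom against 1 from the arrays. It also outweighs the arrays in the main comparison, with 8.08 degrees of freedom against 2. With TC, Mt1 differed by 0.58 ± 0.07 (adjusted p = 0.00136) and Mt2 by 0.45 ± 0.09 (0.0132), and with S2101 Mt1 differed by 0.69 ± 0.07 (0.000623) and Mt2 by 0.71 ± 0.09 (0.0019, limma). These were the 2 members past the test for each compound, where 8.18% of tested genes passed with TC and 6.71% with S2101. The calls rest on the settings of the fit. Without the filter on dim genes no member passed for either compound, nor did any without an intensity trend in the variance. With the probe sets of a gene averaged, Mt1 with S2101 stood at 0.34 and its call ended (adjusted p = 0.0636, limma), while Mt1 with TC stood at 0.62 (0.00197). The 2 comparisons share the vehicle arrays.

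Mt1 signal was 1.5 times the vehicle mean with TC and 1.62 times with S2101, and Mt2 signal was 1.37 times with TC and 1.63 times with S2101. None of the 9 tested members passed between TC and S2101, where 0.033% of genes did (limma). The largest was Slc30a1, with a TC minus S2101 difference of -0.51 (95% interval -0.88 to -0.15), and next came Mt2, with -0.25 (-0.48 to -0.03). For Mt1 it was -0.11 (-0.29 to 0.07). For Slc39a6 the interval ran from -0.18 to 0.19, and for Slc39a14 from -0.38 to 0.21. Missing the threshold does not show that the compounds acted alike.

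**Figure D3:**
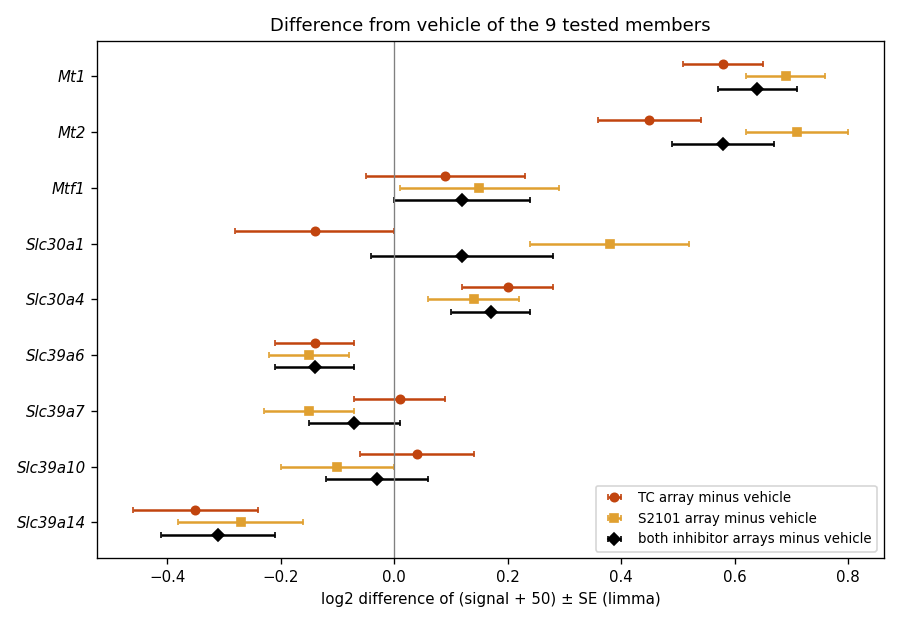
Log2 difference of (signal + 50) from the vehicle arrays, with SE bars from limma, for the 9 tested genes, with TC (circles), S2101 (squares) and both inhibitor arrays (diamonds). Mt1 and Mt2 lie right of 0 with both compounds, and Slc30a1 lies at -0.14 with TC and at 0.38 with S2101.

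Other zinc transporters gave no call. Of 18 genes, 10 were tested and 0 passed, where 8.01% of all tested genes did (limma), and their median difference was -0.02. Where 2029 of the 9097 tested genes had an unadjusted p under 0.05, 1 of these 10 did. That gene was the importer Slc39a1, with signals of 3203 with TC and 2925 with S2101, against 2624 and 2589 with vehicle (0.23 ± 0.08; adjusted p = 0.11). The largest difference belonged to the vesicular zinc transporter Slc30a3, known from synapses, at 0.52 ± 0.29 (adjusted p = 0.34), but its vehicle signals of 99.7 and 228 bracketed the TC signal of 183. Slc39a13, an importer of the secretory pathway, stood at -0.14 ± 0.12 (0.545).

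Reported targets of the metal-responsive factor other than the members went both ways. Of 7 tested, 1 rose, 2 fell and 4 did not pass, where 4.28% of all tested genes rose and 3.74% fell. The list's median was 0.05. The stress-responsive gene Ndrg1 fell, with signals of 2532 with TC and 2613 with S2101, against 3330.1 and 3529 with vehicle (-0.41 ± 0.07; adjusted p = 0.00789, limma). The LIM protein gene Csrp1 fell as well, at 3853 with TC and 3937 with S2101, against 5058 and 5069 with vehicle (-0.37 ± 0.07; 0.00758). The heat shock protein gene Hspa1a rose, at 530.1 with TC and 513 with S2101, against 353 and 353 with vehicle (0.51 ± 0.12; 0.0257), though whether its probes also caught the near-identical copy Hspa1b was not tested, and the Hspa1b probe set stood at 0.04. Its call ended whichever array was left out (adjusted p from 0.0617 to 0.0983, and from 0.0142 to 0.112 over 11 alternatives). That of Ndrg1 ended without vehicle 2 (-0.37; 0.07) and passed in 9 of 12 alternatives (adjusted p from 0.00463 to 0.0987), and that of Csrp1 passed in 10 of 12 (from 0.00524 to 0.148). The iron exporter Slc40a1 (0.31), the growth factor gene Pgf (0.05) and the selenoprotein gene Selenow (0.05) did not pass.

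Copper handling genes showed no call either. Of 14 genes, 11 were tested and 0 passed, where 8.01% of all tested genes did (limma), and the median was 0.02. At an unadjusted p under 0.05 there were 0, against 2029 of the 9097 tested genes. The copper importer Slc31a1 (-0.16), the copper chaperone Atox1 (-0.13) and the mitochondrial copper chaperone Cox17 (0.10) had the largest differences. The list holds Mtf2, a Polycomb-associated protein with a similar name to Mtf1, at -0.05.

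Metallothioneins respond to glucocorticoids, so other glucocorticoid-responsive genes were set beside them. Of 17 tested, 2 rose, 1 fell and 14 did not pass, beside 4.28% of all tested genes that rose and 3.74% that fell. Their median difference was 0.14. Fkbp5, an immunophilin induced by glucocorticoids, fell, with signals of 555 with TC and 643 with S2101, against 856 and 995 with vehicle (-0.59 ± 0.12; adjusted p = 0.0117, limma). The kinase subunit gene Pik3r1 (0.46 ± 0.09; 0.0149) and the transcription factor gene Cebpb (0.42 ± 0.08; 0.00745) rose. The call of Fkbp5 ended without vehicle 2 (-0.49; 0.0501) or without TC (-0.49; 0.0533), with no filter on dim genes (0.0839), and with probe sets averaged, where the difference was -0.27 (0.304). That of Pik3r1 ended without vehicle 2 (0.40; 0.07) or without S2101 (0.38; 0.0571). Fkbp5 passed in 7 of 11 alternatives (adjusted p from 0.00281 to 0.304) and Pik3r1 in 7 of 12 (from 0.01 to 0.16). Ddit4 (0.39), Sgk1 (-0.30) and Foxo3 (0.28) did not pass.

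Oxidative stress genes gave 2 that rose, 0 that fell and 10 that missed the threshold among 12 tested, the median being 0.15. Over all tested genes 4.28% rose and 3.74% fell. At an unadjusted p under 0.05 (limma), 4 of the 12 were higher and 0 were lower. Among the 9097 tested genes, 2029 had such a p in either direction. The transcription factor gene Nfe2l2, which drives antioxidant response elements, had signals of 6300.4 with TC and 6295 with S2101, against 4699.7 and 4614 with vehicle (0.43 ± 0.07; adjusted p = 0.00341, limma). The glutathione transferase gene Gsta4 had 3068 with TC and 2954 with S2101, against 1335 and 1227 with vehicle (1.20 ± 0.08; 4.59e-05). Gsta4 passed in all 12 alternatives, while the Nfe2l2 call ended when its probe sets were averaged (0.33; adjusted p = 0.287, range 0.00166 to 0.287). The transferase Gstm1 (0.41), the glutathione synthesis gene Gclm (0.27) and the sulfiredoxin gene Srxn1 (0.25) did not pass.

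**Figure D4:**
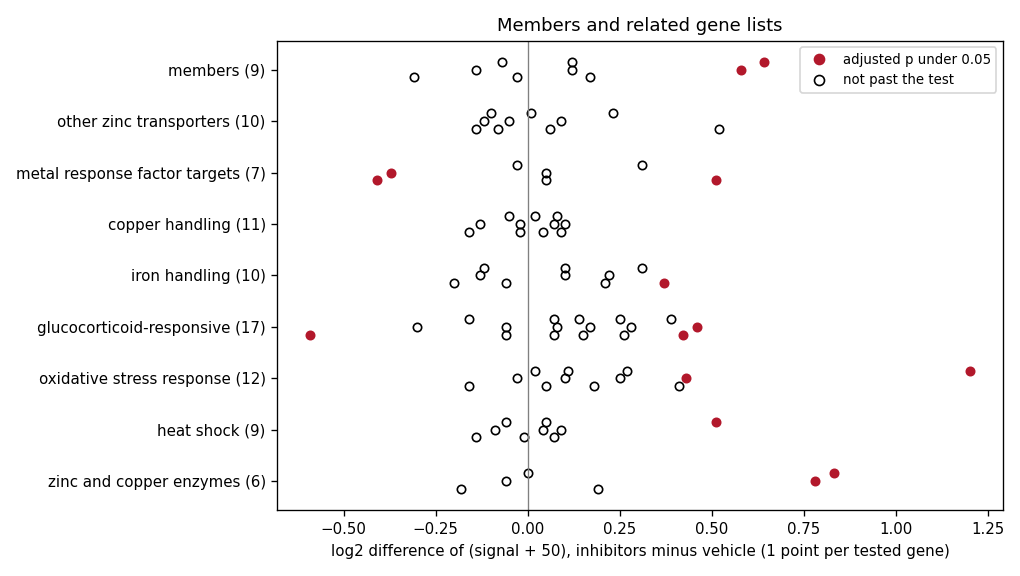
Log2 difference of (signal + 50), inhibitors minus vehicle, 1 point per tested gene, for the members and 8 related gene lists with the number tested in brackets; red points have an adjusted p under 0.05 (limma over all 9097 genes). Mt1 and Mt2 are the red points among the members, and the other zinc transporters and copper handling genes have none.

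The genes whose pattern over the 4 arrays was most like that of Mt1 were found by the Euclidean distance between log2 values centred on each gene's mean. The 5 nearest were Klhl24, a ubiquitin ligase adaptor gene, at a distance of 0.045, the water channel gene Aqp5 (0.057), the anthrax toxin receptor gene Antxr1 (0.071), Ciao3, of cytosolic iron-sulfur assembly (0.073), and the mitochondrial protein gene Nipsnap1 (0.082). Klhl24 had signals of 1605 with TC and 1660.2 with S2101, against 1048 and 1008 with vehicle. For Mt2 they were Id2, an inhibitor of helix-loop-helix factors (0.051), the cytokine gene Tslp (0.053), Tmem140 (0.069), Knop1 (0.070) and the calpain gene Capn1 (0.082). Id2 had signals of 2328 with TC and 2701 with S2101, against 1498 and 1735 with vehicle. Mt1 and Mt2 lay 0.21 from each other, Mt2 being the 119th nearest gene to Mt1 and Mt1 the 62nd nearest to Mt2. With 4 arrays this likeness is a description.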

How the data were processed

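Total RNA (250 ng) of 4 samples was labelled as biotinylated cRNA and measured on Affymetrix arrays, per the labels' protocols. The authors deposited MAS5 signal intensity values per probe set on a linear scale, made with MAS5 and Affymetrix Expression Console per the submitters' processing notes. Every array had a 2% trimmed mean of 500. The sources used here give neither software versions nor scan batches. Present or absent calls played no part. Depth does not apply to arrays, and their number limits the precision.

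Of 45101 probe sets, 34945 carried 1 gene symbol in the platform annotation, 932 carried several and the others were not used. Each of 18193 genes was represented by its brightest probe set. Log2(signal + 50) was tested with limma 3.58.1 in R 4.3.3 (eBayes with an intensity trend), on the 9097 genes at or above the median mean signal (179), with Benjamini-Hochberg adjustment and a threshold of 0.05. TC and S2101 formed 1 arm against vehicle, which puts the spread between compounds into the error. A second fit had 3 groups. The code was tested on simulated data. Promoters came from RefSeq (GRCm38.p6).

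The members and gene lists were chosen with earlier results of these data known. Named were every member with all its probe sets and, from each list, the genes past the test and up to 3 others with the largest difference. Alternatives changed the offset, filter, variance trend, choice of probe set and normalization, or left out 1 array.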

Additional observations from a re-analysis of the deposited data

How the results depend on the processing

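With both inhibitors against vehicle, Mt1 passed in 12 of 12 alternatives (log2 difference 0.48 to 0.69) and Mt2 in 11 of 12 (0.45 to 0.71). Leaving out 1 array gave 501 to 749 genes past the test, against 729, and 2 members each time. No filter on dim genes gave 266 of 18193 tested genes. A filter at the 75th percentile gave 457 of 4549, with 6 members tested. Out of 9097 tested genes, the count was 423 with no intensity trend and 473 with probe sets averaged. With no filter, which tests more genes, 1 member passed, and Mt2 stood at 0.58 (adjusted p = 0.068, limma; range 0.000209 to 0.068). The separate fit over all probe sets gave Mt2 an adjusted p of 0.131 (limma). For TC the count was 744, against 12 with no filter and 83 with no trend, each with 0 members. For S2101 it was 610, against 8 with no filter and 112 with no trend, each with 0 members, and 389 with arrays centred on the median, while 1 member passed with probe sets averaged, where Mt1 stood at 0.34 (adjusted p = 0.0636). Between TC and S2101 it was 3, against 0 with no filter (limma, 1069 at an unadjusted p under 0.05), 0 with no trend (691), 13 with probe sets averaged, 13 after quantile normalization and 24 with arrays centred. Signs turned only for differences that had not passed. Against vehicle these were Slc39a10 at 0.01 with arrays centred, and, with 1 array left out, Slc30a1 (-0.14 without S2101 to 0.38 without TC), Slc39a7 (-0.15 without TC to 0.01 without S2101) and Slc39a10 (-0.10 without TC to 0.04 without S2101). For TC they were Slc30a1 at 0.03 with probe sets averaged and Slc39a7 at -0.01 after quantile normalization, and for S2101 Slc39a6 at 0.03 with probe sets averaged. For TC minus S2101 they were Mt1 at 0.28, Slc39a6 at -0.12 and Slc39a14 at 0.05 with probe sets averaged, Slc39a6 at -0.02 after quantile normalization, and Mtf1 at 0.04 and Slc39a14 at 0.03 with arrays centred. The cause was not tested. The 3-group fit without a vehicle array has no residual degrees of freedom and was not run. No paired analysis was possible because the labels give no pairing and each compound has 1 array. Signal near background limits Mt3 and the dim probe sets.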

Other observations

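Among zinc and copper enzymes, 2 of 6 tested genes rose and 0 fell (limma), with a median log2 difference of 0.10. The shares over all tested genes were 4.28% higher and 3.74% lower. At an unadjusted p under 0.05 (limma), 3 of the 6 were higher and 0 were lower. Among the 9097 tested genes, 2029 had such a p in either direction. Both enzyme genes that rose encode carbonic anhydrases, which use zinc to hydrate carbon dioxide. Car2 had signals of 455 with TC and 442 with S2101, against 235 and 225 with vehicle (0.83 ± 0.13; adjusted p = 0.00362, limma). Car3, abundant in muscle, had 3822 with TC and 4152 with S2101, against 2459 and 2143 with vehicle (0.78 ± 0.09; 0.000642), and its call ended when probe sets were averaged (0.31; 0.171, range 5.32e-07 to 0.171). The superoxide dismutases Sod2 (0.19) and Sod1 (-0.06) and the heme synthesis enzyme gene Alad (-0.18) did not pass.

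Of 10 tested iron handling genes, 1 rose and 9 did not pass, where 4.28% of all tested genes rose. The median was 0.10. The mitochondrial iron importer Slc25a37 had signals of 1513 with TC and 1589 with S2101, against 1149 and 1231 with vehicle (0.37 ± 0.09; adjusted p = 0.0285, limma). Its call ended without vehicle 1 (0.32; 0.16), without vehicle 2 (0.42; 0.0517) or without S2101 (0.33; 0.0776), as it did with no filter on dim genes (0.0884), no intensity trend (0.0749) or arrays centred on the median (0.064). It passed in 6 of 12 alternatives (adjusted p from 0.0285 to 0.16). Slc40a1 (0.31), the iron cargo receptor gene Ncoa4 (0.22) and the heme oxygenase gene Hmox2 (0.21) did not pass. Of 9 heat shock genes, Hspa1a alone passed, where 8.01% of all tested genes did, and the list median was 0.04. Dnajb1 (-0.14), Hspb1 (0.09) and Hspd1 (-0.09) did not pass.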
